A study of Rattus norvegicus with 34 samples.

Results

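Peripheral blood mononuclear cells (PBMCs), a mix of lymphocytes and monocytes, of rats with a large myocardial infarction (L-MI) were set against those of sham-operated rats across every transcript cluster of the array, the probe group that stands for a gene or transcript. All PBMC arrays were taken, 11 of the 34 arrays of the series, and of these 5 came from L-MI and 6 from sham. The remaining arrays hold left ventricular (LV) RNA and were used for L-MI and sham, 11 arrays in all, and only 1 alternative fit of the difference between tissues took in the others.

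All animals were male Wistar rats, and their age is not given in the sources used here. In the L-MI group the proximal left coronary artery had been tied off. The sham group had the same surgery with the suture left untied, so both groups carry the effects of anaesthesia and thoracotomy. Blood was drawn 2 months later from the heart into EDTA tubes, and the mononuclear cells were separated by centrifugation through Histopaque, a density medium, before their RNA was hybridized to Affymetrix Rat Gene 1.0 ST arrays. Each PBMC array stands for 1 biological replicate of the labels, and the sources do not say which PBMC and LV arrays share a rat. The deposited description of L-MI replicate 1 calls the injury compensated, although title and infarct size label place it in L-MI. It was kept as L-MI. Among the genes named here as called, the calls of Btla, Bub1, Cd209a, Cdkn3, Hdc, Jund, Klrd1, Klre1, LOC100364751, Ly49i2, Mki67, Nusap1, Pear1, Prdm1, Prps1, Slc2a4, SNHG6, Top2a and Vpreb3 ended without it.

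The values are log2 signals after robust multiarray averaging, and a difference of 1 unit is a doubling. Array medians lay between 6.97 and 7.01, and pairs of arrays correlated between 0.988 and 0.997 across transcript clusters. The L-MI arrays were the more uneven group. The SD of an array's deviations from its group mean was 0.20 in L-MI replicates 1 and 2 and 0.15 to 0.18 in the other L-MI arrays, against 0.13 to 0.16 in sham.

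The cells carried the signals of blood leukocytes. Ptprc (CD45), the common leukocyte antigen, lay between 12.83 and 13.02 in all arrays, and Cd3e, a chain of the T cell receptor complex, between 11.97 and 12.22. Csf1r, the receptor of monocytes for their growth factor, lay between 10.63 and 11.57. Platelet and red cell transcripts were also present. Pf4, a chemokine stored in platelets, lay between 12.79 and 13.36, and Alas2, the first enzyme of haem synthesis in erythroid cells, between 9.18 and 13.03, the widest of these ranges. The cardiac genes Myh6 and Tnnt2 stayed between 6.02 and 6.69 and the neutrophil gene S100a8 between 4.05 and 4.59.

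Natural killer (NK) cells and some T cells read the state of other cells through lectin-like receptors. In rodents these receptors are encoded side by side in the NK gene complex, which lies on chromosome 4 of the rat. Klrd1 (CD94) pairs with the NKG2 proteins encoded by Klrc genes and recognizes non-classical MHC class I molecules, with Klrc1 as the inhibitory and Klrc2 as an activating partner. Klre1 pairs in the same way with Klri1 or Klri2, and the Ly49 receptors, encoded by Klra and Ly49 genes, bind classical MHC class I.

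The region before the start site is shown for 6 of these genes, because the first 4 were the receptor genes with the largest rises in L-MI and the last 2 those called lower. Each sequence is the 250 bases before the annotated start, read 5′ to 3′ on the gene's own strand, which is the minus strand for all 6 (RefSeq, build GRCr8). The positions are chr4:164798759-164799008 for Klrc3, chr4:164819866-164820115 for Klrc2, chr4:164838447-164838696 for Klrc1, chr4:164947505-164947754 for Klri2, chr4:166554851-166555100 for Klra5 and chr4:166180683-166180932 for Ly49i2. Capitals mark TGTGGT on either strand, the core of sites bound by Runx factors, which act in lymphocyte development.
Klrc3: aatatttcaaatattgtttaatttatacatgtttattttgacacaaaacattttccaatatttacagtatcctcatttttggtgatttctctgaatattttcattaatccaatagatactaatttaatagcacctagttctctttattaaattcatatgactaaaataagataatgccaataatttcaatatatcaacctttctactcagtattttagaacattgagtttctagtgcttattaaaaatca
Klrc2: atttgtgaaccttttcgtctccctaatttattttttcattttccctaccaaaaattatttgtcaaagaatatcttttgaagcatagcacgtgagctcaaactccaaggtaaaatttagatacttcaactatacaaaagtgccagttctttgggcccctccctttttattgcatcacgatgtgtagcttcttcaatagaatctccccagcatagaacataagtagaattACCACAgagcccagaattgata
Klrc1: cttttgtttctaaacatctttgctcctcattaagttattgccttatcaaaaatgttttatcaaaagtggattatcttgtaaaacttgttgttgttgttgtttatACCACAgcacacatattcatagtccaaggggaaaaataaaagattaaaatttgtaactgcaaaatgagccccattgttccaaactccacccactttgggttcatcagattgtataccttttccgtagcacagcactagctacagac
Klri2: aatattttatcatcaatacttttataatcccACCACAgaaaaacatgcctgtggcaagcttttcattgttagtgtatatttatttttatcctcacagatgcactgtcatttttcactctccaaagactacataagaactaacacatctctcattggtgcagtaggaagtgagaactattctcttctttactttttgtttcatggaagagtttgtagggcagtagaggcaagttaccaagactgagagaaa
Klra5: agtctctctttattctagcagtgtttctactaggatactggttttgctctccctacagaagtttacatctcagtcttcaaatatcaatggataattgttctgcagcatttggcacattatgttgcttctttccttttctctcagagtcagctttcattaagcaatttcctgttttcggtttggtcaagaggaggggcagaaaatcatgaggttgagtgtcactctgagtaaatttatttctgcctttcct
Ly49i2: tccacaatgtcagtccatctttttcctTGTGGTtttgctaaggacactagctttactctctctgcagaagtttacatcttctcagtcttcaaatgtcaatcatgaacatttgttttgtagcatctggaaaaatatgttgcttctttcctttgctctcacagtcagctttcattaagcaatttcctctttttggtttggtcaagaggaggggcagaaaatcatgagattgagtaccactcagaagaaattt
The letters were present once in Klrc2, Klrc1, Klri2 and Ly49i2 and not in these windows of Klrc3 and Klra5. Of all 33469 RefSeq windows of the same length 14.5% held them, and of the 22 receptor genes of the complex with a window 5 did. The 2 Ly49 genes were the most alike in this stretch, with 74.2% identical columns in a global alignment. The Klrc genes shared 51.5% to 53.9% with each other, which is close to the 47.7% to 52.6% between the Klrc or Klri2 windows and those of the Ly49 genes.

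Over all transcript clusters, 270 of 29214 (0.924%) were called altered in PBMCs of L-MI, 142 higher and 128 lower. Called means a fold of at least 1.2, or 0.26 on the log2 scale, with a limma p of no more than 0.05 before adjustment. These are the thresholds in the study's methods for this tissue, which name no adjustment there. The heading of the study's list of altered PBMC transcripts, however, describes its p-values as adjusted at a false discovery rate of 5%. A p of no more than 0.05 was reached by 3.77% of the transcript clusters before the fold was asked for, less than the 5% that such a threshold lets through where no level differs. None passed a Benjamini-Hochberg adjusted p of 0.05 in limma (0 calls, with 1100 before adjustment), and the smallest adjusted p was 0.541. Every gene named below therefore stands at an unadjusted threshold. All values of the 2 groups lay apart in 86 transcript clusters (0.294%), of which 22 were called, 8 higher and 14 lower. The same call rule took 8.28% of the transcript clusters in LV of the same groups.

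Calls among genes with a name were more often higher, and among the other transcripts more often lower, a difference that was not tested. Among 14506 genes named by the platform annotation, 1 transcript cluster each, 89 (0.614%) were called, 67 higher (0.462%) and 22 lower (0.152%). Among the transcript clusters without a single platform symbol 179 (1.29%) were called, 73 higher (0.525%) and 106 lower (0.762%). A further 24 called transcript clusters could be named from the study's own list of altered PBMC transcripts, a list the study drew from these very arrays. Transcripts with no platform entry that the study did not list as altered stayed without a name. The calls of those 24 are thus no separate evidence of a change.

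Receptors of the NK gene complex held the largest rises. Of the 25 measured genes of the lectin-like receptor families Klra to Klrk and Ly49, 6 were called higher and 2 lower, 32% of the list against 0.614% of all named genes. The list was chosen with earlier results in view, and its median log2 fold change of 0.07 stood beside -0.0001 for all named genes, with members called in both directions. Without L-MI replicate 2 the calls were 9 higher and 1 lower, with Klrb1b, Klrg1 and Ly49s6 added, and without L-MI replicate 1 they were 4 higher and 3 lower.

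The NKG2 genes Klrc3, Klrc2 and Klrc1 and the activating receptor Klri2 had the largest rises of the list. Klrc3 had signals between 9.16 and 9.92 in sham, with a median of 9.49, and of 10.96, 9.79, 9.81, 10.91 and 11.01 in L-MI replicates 1 to 5. L-MI replicates 1, 4 and 5 lay above every sham array, and L-MI replicates 2 and 3 within the sham range. The log2 fold change was 0.95 (SE 0.24, n = 5 and 6, two-sided exact permutation p = 0.013 over 462 splits of the arrays), a 1.93-fold difference.

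Klrc2, which encodes an activating NKG2 partner, showed the same arrays high and low. It lay between 7.10 and 8.03 in sham (median 7.65) and at 8.76, 7.85, 7.97, 8.91 and 9.05 in L-MI replicates 1 to 5, a log2 fold change of 0.88 (SE 0.23, exact permutation p = 0.0108). Klrc1, the inhibitory NKG2A, lay between 8.05 and 8.87 in sham (median 8.58) and at 9.59, 8.71, 8.96, 9.38 and 9.95 in L-MI. Its log2 fold change was 0.76 (SE 0.20, exact permutation p = 0.00649), and only L-MI replicate 2 fell within the sham range. The 3 Klrc genes are close relatives, and how far their probes share signal was not tested.

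Klri2, the activating partner of Klre1, lay between 6.77 and 8.18 in sham (median 7.67) and at 9.12, 7.53, 8.23, 8.65 and 9.10 in L-MI, a log2 fold change of 0.88 (SE 0.30, exact permutation p = 0.0455). L-MI replicate 2 was again among the sham arrays. The partner chains moved less. Klrd1, the CD94 chain shared by the NKG2 receptors, had a log2 fold change of 0.35 (SE 0.13, exact permutation p = 0.0498) and Klre1 one of 0.44 (SE 0.17, exact permutation p = 0.0519), with the calls of both lost without L-MI replicate 1 or without L-MI replicate 5. The calls of Klrc1, Klrc2, Klrc3 and Klri2 were kept whichever of the 11 arrays was left out, with log2 fold changes of 0.60 to 0.91, 0.74 to 1.04, 0.82 to 1.13 and 0.70 to 1.12.

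Several neighbouring receptors were not called. Klrk1 (NKG2D), an activating receptor that lies between Klrd1 and Klrc3, had a signal of 12.57 ± 0.07 (SD, n = 6) in sham and 12.56 ± 0.07 (SD, n = 5) in L-MI. Klri1, the inhibitory partner of Klre1, had a log2 fold change of 0.10 (SE 0.27), and Klrb1c, the NKR-P1C receptor, one of 0.07 (SE 0.05). None of the 9 Clec2 genes named by the platform annotation was called, and their median log2 fold change was -0.04. They were taken by name. The Clec2 family includes ligands of the Klrb1 receptors, and most but not all of these genes lie in the stretch of the complex studied here.

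Of the Ly49 receptors 2 were called lower, and the others named by the platform annotation lay on both sides of zero without a call. Klra5, a Ly49 gene of low signal, lay between 4.15 and 4.73 in sham (median 4.61) and at 4.36, 3.83, 3.99, 3.45 and 3.45 in L-MI replicates 1 to 5, a log2 fold change of -0.69 (SE 0.17, exact permutation p = 0.0108). Only L-MI replicate 1 reached into the sham range, and the call was kept whichever array was left out. Ly49i2 had a log2 fold change of -0.38 (SE 0.16, exact permutation p = 0.0693), and leaving out any of 7 arrays ended its call. Among the members that were not called, Klra17 stood at -0.45 (SE 0.24) and Ly49i3 at -0.35 (SE 0.23), while Ly49s6 stood at 0.23 (SE 0.21) and Klra22 at 0.11 (SE 0.15).

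Along chromosome 4, the 6 receptor genes of the list that were called higher lay in the stretch from Klre1 to Klri2, which holds 8 measured genes, and both genes called lower lay in the Ly49 stretch that follows. This order is that of the GRCr8 gene table. The 21 measured genes before Klre1 in the complex, the C-type lectins Clec12a, Clec7a and Clec9a of myeloid cells among them, held no call, but LOC689800, which the gene table lists by its ID as Clec2gl1 and places before Klre1 as well, was called higher (log2 fold change 0.64). LOC100364751, a Ly49 gene by the study's name for it, was also called higher (0.43) and could not be placed.

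**Figure D1:**
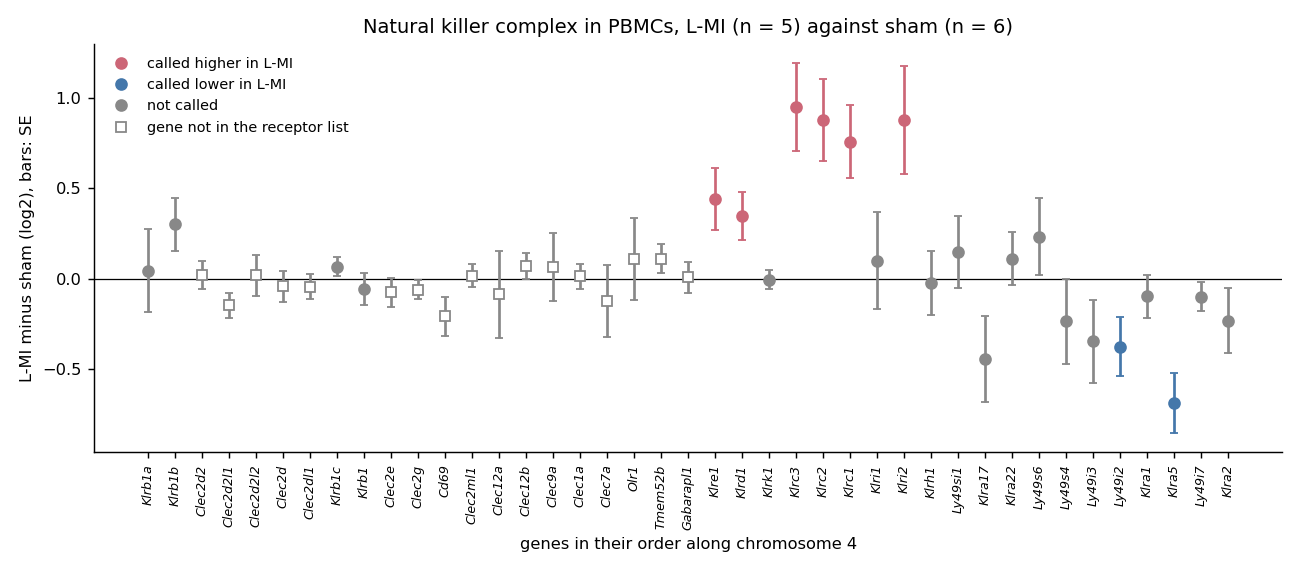
Difference in log2 signal between L-MI (n = 5) and sham (n = 6) for the measured genes of the NK gene complex, in their order along chromosome 4, with standard errors. Red circles are receptor genes called higher, blue ones called lower and grey ones not called, and open squares are genes outside the receptor list. Of the genes drawn, those called higher sit between Klre1 and Klri2, up to 0.95. Those called lower are Ly49i2 and Klra5, both of low signal, while Klra17 at -0.45 was not called. The transcripts named from the study's list, LOC689800 (0.64) and LOC100364751 (0.43), are not drawn.

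Other genes of NK and cytotoxic cells held no call with all arrays. Of 19 measured markers of NK cells and cytotoxic granules 0 were called by limma (0 also by p alone, before adjustment), with a median log2 fold change of 0.08. Ncr1, the NKp46 receptor, went from 8.76 ± 0.35 (SD, n = 6) to 8.82 ± 0.57 (SD, n = 5), and Prf1, perforin, from 11.14 ± 0.25 to 11.15 ± 0.30. Per array, the mean over this list was 8.97 in L-MI replicate 2, below all other arrays, and 9.64 to 9.88 in the other L-MI arrays, against 9.20 to 9.79 in sham. L-MI replicate 2 was thus low both in this list and in the Klrc genes, whereas L-MI replicate 3, at 9.64 in the list, was near sham in Klrc3. Without L-MI replicate 2 the median of the list was 0.29 and 5 members were called higher, the granzymes Gzmk (log2 fold change 0.42) and Gzmm (0.40), the protease inhibitor Cst7 (0.29), the interleukin receptor chain Il2rb (0.32) and the sphingosine phosphate receptor S1pr5 (0.31), all named after their values were seen. In bulk RNA a smaller share of a cell type and less RNA per cell cannot be told apart.

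**Figure D2:**
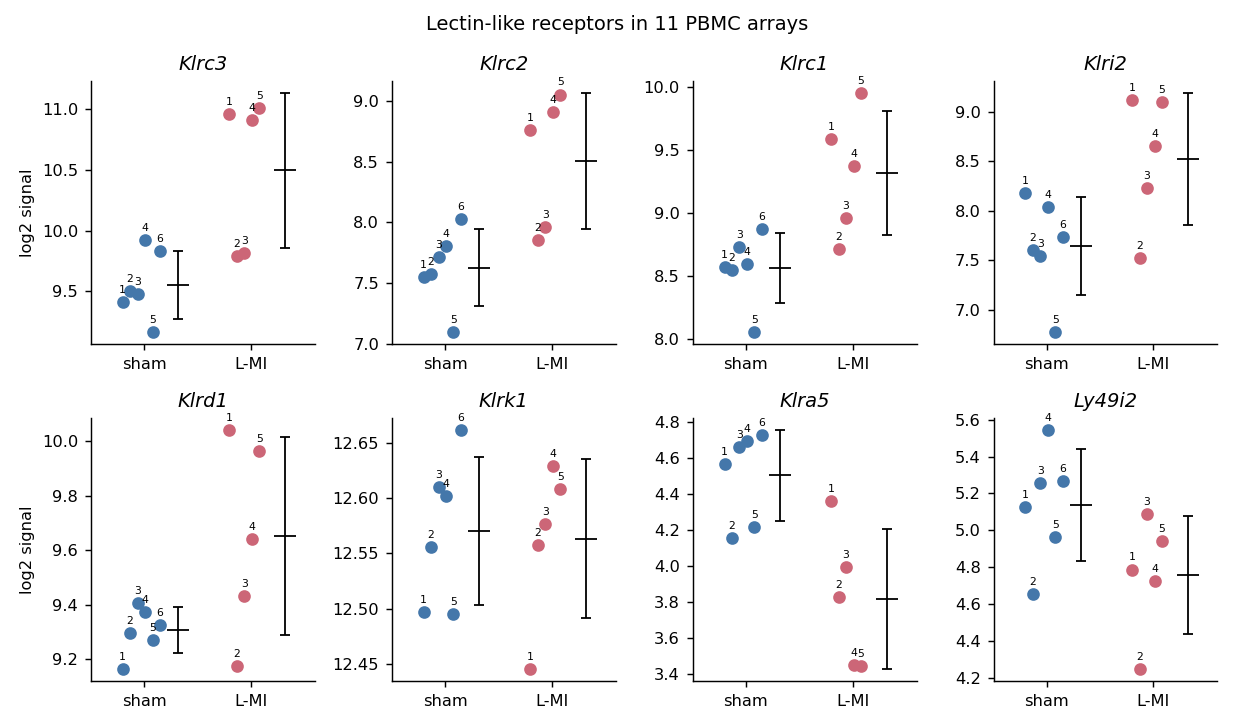
Log2 signal of 8 lectin-like receptor genes in each PBMC array, numbered by replicate, with the mean and SD of each group beside the points. Klrc3, Klrc2, Klrc1 and Klri2 are highest in L-MI replicates 1, 4 and 5, Klrk1 is level between the groups, and Klra5 is lowest in L-MI replicates 4 and 5. Each panel has its own scale.

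A pair of transcripts of lectin-like genes had no name in the platform annotation and were named from the study's list. LOC689800, named C-type lectin-related protein 7 (Clr7) by the study, lay between 9.62 and 10.08 in sham (median 9.98) and at 10.71, 10.65, 9.85, 10.59 and 11.02 in L-MI, with L-MI replicate 3 alone within the sham range. Its log2 fold change was 0.64 (SE 0.17, exact permutation p = 0.0173), and in LV of the same groups it was 0.76 (SE 0.15, limma's adjusted p = 0.00185). LOC100364751, named Klra7 by the study, had log2 fold changes of 0.43 in PBMCs (exact permutation p = 0.0455) and 0.41 in LV (limma's adjusted p = 0.0798). For neither did the change differ between the tissues by the interaction term (limma's adjusted p = 0.866 and 0.975). By RT-qPCR, which measures single transcripts, the study found the rises of both significant in LV and not in PBMCs.

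B cell markers held 2 calls, both lower. B cells make antibodies, and their identity rests on the B cell receptor, its signalling partners and a set of transcription factors. All 14 measured B cell markers had negative log2 fold changes, from -0.67 to -0.10 with a median of -0.22. Of these 2 were called lower, against 0.152% of all named genes, in a list chosen with earlier results in view. Vpreb3, which takes part in assembly of the B cell receptor, was at 7.82 ± 0.48 (SD, n = 6) in sham and 7.16 ± 0.58 (SD, n = 5) in L-MI. Its log2 fold change was -0.67 (SE 0.27, exact permutation p = 0.0714). Spib, a transcription factor of B cells and plasmacytoid dendritic cells, had a log2 fold change of -0.31 (SE 0.12, exact permutation p = 0.0476). Members short of the fold included Cr2, the complement receptor CD21 (log2 fold change -0.25, SE 0.09), Cd79b, a signalling chain of the B cell receptor (-0.22, SE 0.09), and Ms4a1, CD20 (-0.23, SE 0.12).

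The mean of these markers in each array showed where the difference lay. It was 10.18, 10.16, 10.50, 10.14 and 9.9999 in L-MI replicates 1 to 5 and between 10.17 and 10.65 in sham, with a median of 10.46. L-MI replicate 3 lay near the middle of the sham arrays, and sham replicate 3 was as low as the other L-MI arrays. Without L-MI replicate 3 the median of the list was -0.28 and 9 members were called lower, and without L-MI replicate 5 it was -0.18 and none was (0 calls by limma).

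Single genes not counted in the list were also called lower. Btla, an inhibitory receptor of lymphocytes that was named here after its values were seen, had a log2 fold change of -0.27 (SE 0.09, exact permutation p = 0.0303). Ccr6, a chemokine receptor of B cells and some T cells, had one of -0.28 (SE 0.08, exact permutation p = 0.00649) and Cd83, a marker of mature dendritic cells and activated B cells, one of -0.33 (SE 0.12, exact permutation p = 0.0455). From the study's list came LOC680329, which encodes an immunoglobulin lambda-like sequence (-0.40, exact permutation p = 0.0173), and the immunoglobulin heavy chain sequence RGD1564284 (-0.46, exact permutation p = 0.0108). Fam129c, a gene of B cells, came from there as well (-0.33, exact permutation p = 0.0368). It is an entry of the marker list, left uncounted because the platform annotation has no name for it. Transcripts named from the study's list were picked there as altered in these arrays, so they add nothing independent to the B cell counts.

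Dendritic cell genes included 2 called lower among 14, against 0.152% of all named genes, and 1 to 3 when single arrays were left out. These members were also chosen with earlier results in view. Cd209a, a lectin of dendritic cells, had a log2 fold change of -0.40 (SE 0.15, exact permutation p = 0.0498), with 4 L-MI arrays between 5.96 and 6.23 and L-MI replicate 3 at 6.85 within the sham range of 6.41 to 6.91. The related Cd209d, outside the list, had one of -0.35 (SE 0.10, exact permutation p = 0.00866). Flt3, the receptor that drives dendritic cell growth, had a log2 fold change of -0.04 (SE 0.14).

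The remaining marker lists showed few calls. The 22 T cell markers had a median log2 fold change of -0.003, the 25 monocyte markers one of -0.01 and the 16 neutrophil markers one of 0.08, with 0 calls each by limma and 2, 0 and 0 members that passed on p alone, before adjustment. Of the neutrophil values 13 were above 0. The neutrophil mean was 6.51 and 6.74 in L-MI replicates 2 and 3 and 6.27 to 6.43 in the other L-MI arrays, against 6.11 to 6.45 in sham. Without L-MI replicate 1 the neutrophil genes Lcn2 (0.40) and Ngp (1.03) were called higher. Of 9 plasma cell genes only Prdm1, the regulator of antibody secretion, was called, higher by 0.31 (SE 0.13, exact permutation p = 0.0736). The 9 platelet and 14 erythroid markers held 0 calls by limma (0 on p alone), with medians of 0.11 and 0.28. All 14 erythroid values were above 0, but the erythroid mean ran from 8.10 in sham replicate 3 to 10.35 in L-MI replicate 2, and platelet means from 11.09 to 12.20. Cardiac muscle genes, 12 in all, had a median of 0.01.

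**Figure D3:**
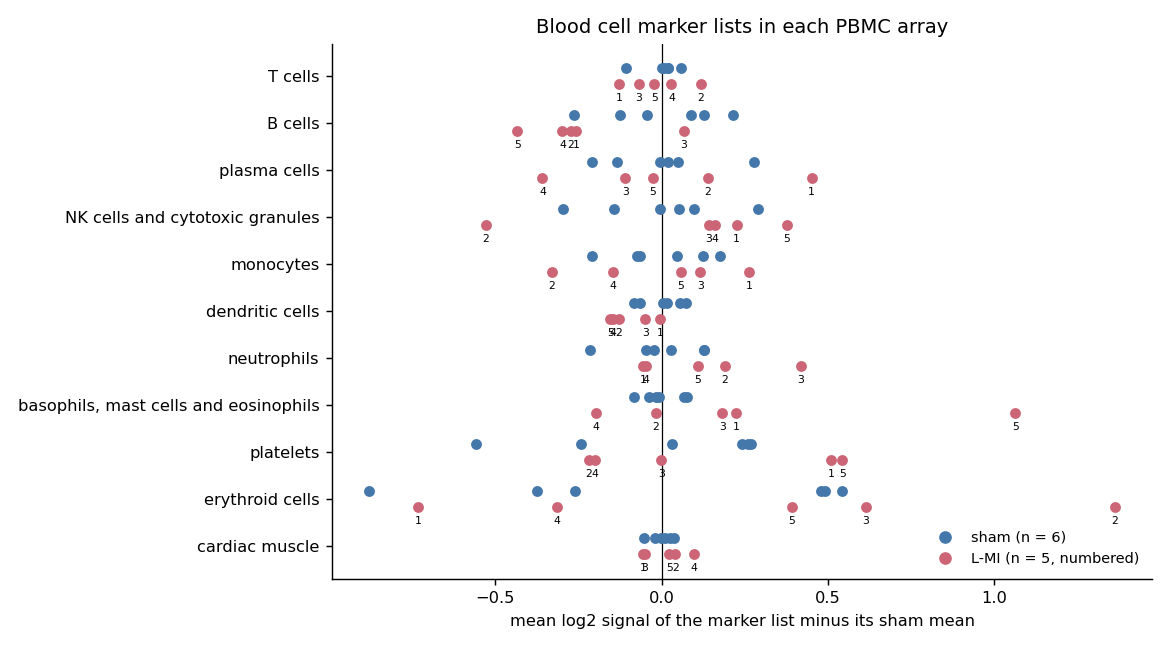
Mean log2 signal of 11 cell type marker lists in each PBMC array, less the mean of the sham arrays for that list. Blue points are sham arrays and red points are L-MI arrays numbered by replicate. The B cell list is low in 4 of 5 L-MI arrays, the basophil, mast cell and eosinophil list is high in L-MI replicate 5, and the erythroid list is the widest in both groups.

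Genes of basophils and mast cells were highest in 1 array, and their mean in L-MI replicates 1 and 3 was also above sham. Their granules hold histamine and proteases, and Hdc encodes the enzyme that makes histamine. Hdc lay between 5.98 and 6.85 in sham (median 6.44) and at 7.50, 6.59, 7.29, 6.15 and 8.21 in L-MI replicates 1 to 5, a log2 fold change of 0.72 (SE 0.30, exact permutation p = 0.0671). Cpa3, a carboxypeptidase of mast cell and basophil granules, was at 10.13 in L-MI replicate 5 and between 4.54 and 5.46 in the 10 other arrays. Ms4a2, a chain of the IgE receptor, was at 6.93 in that array and between 4.80 and 5.48 in the others. The mean of the 13 markers was 6.70 in L-MI replicate 5, 5.86 in L-MI replicate 1 and 5.82 in L-MI replicate 3. It was 5.62 and 5.44 in L-MI replicates 2 and 4, against 5.56 to 5.72 in sham. Without L-MI replicate 5 Hdc had a log2 fold change of 0.46 and was not called. Leaving out single arrays gave 0 to 3 members called higher. The most were without L-MI replicate 4, with Hdc (0.97), Ms4a2 (0.71) and Gata2 (0.30).

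Cell division genes were called in 1 direction. Of 39 measured genes for DNA replication, repair and mitosis 5 were called higher and 0 lower (9 members passed on p alone), against 0.462% of all named genes called higher. This list, too, was chosen with earlier results in view. The median of the list was 0.11 on the log2 scale. Top2a, the topoisomerase that untangles DNA before mitosis, lay between 6.35 and 6.57 in 5 sham arrays, slightly higher in sham replicate 5, and at 7.25, 6.84, 6.56, 6.95 and 6.70 in L-MI, a log2 fold change of 0.34 (SE 0.10, exact permutation p = 0.00866). Bub1, a kinase of the spindle checkpoint, had the 2 groups apart, from 4.49 to 4.80 in sham and from 4.82 to 5.28 in L-MI. Its log2 fold change was 0.27 (SE 0.09, exact permutation p = 0.00216, the smallest value 462 splits can give). The signal of Bub1 was low, near the sham array means of olfactory receptor genes (4.65 to 4.76), which blood cells are not known for. The alternative fit that dropped the dimmest signals left Bub1 out, and with array weights its call ended. The others called were Cdkn3, a phosphatase of cyclin-dependent kinases (0.33), Fanca, a DNA repair gene (0.31), and Nusap1, a spindle protein (0.29). Mki67, the proliferation marker Ki-67, was named from the study's list and had a log2 fold change of 0.39 (SE 0.14, exact permutation p = 0.026).

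The rise in cell division genes rested much on L-MI replicate 1. The mean of the list was 6.79 there, 6.74 in L-MI replicate 2 and 6.52 to 6.57 in the other L-MI arrays, against 6.47 to 6.59 in sham. Without L-MI replicate 1, the array whose description goes against its label, only Fanca kept its call and the median was 0.08. Without L-MI replicate 4 there were 7 calls.

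**Figure D4:**
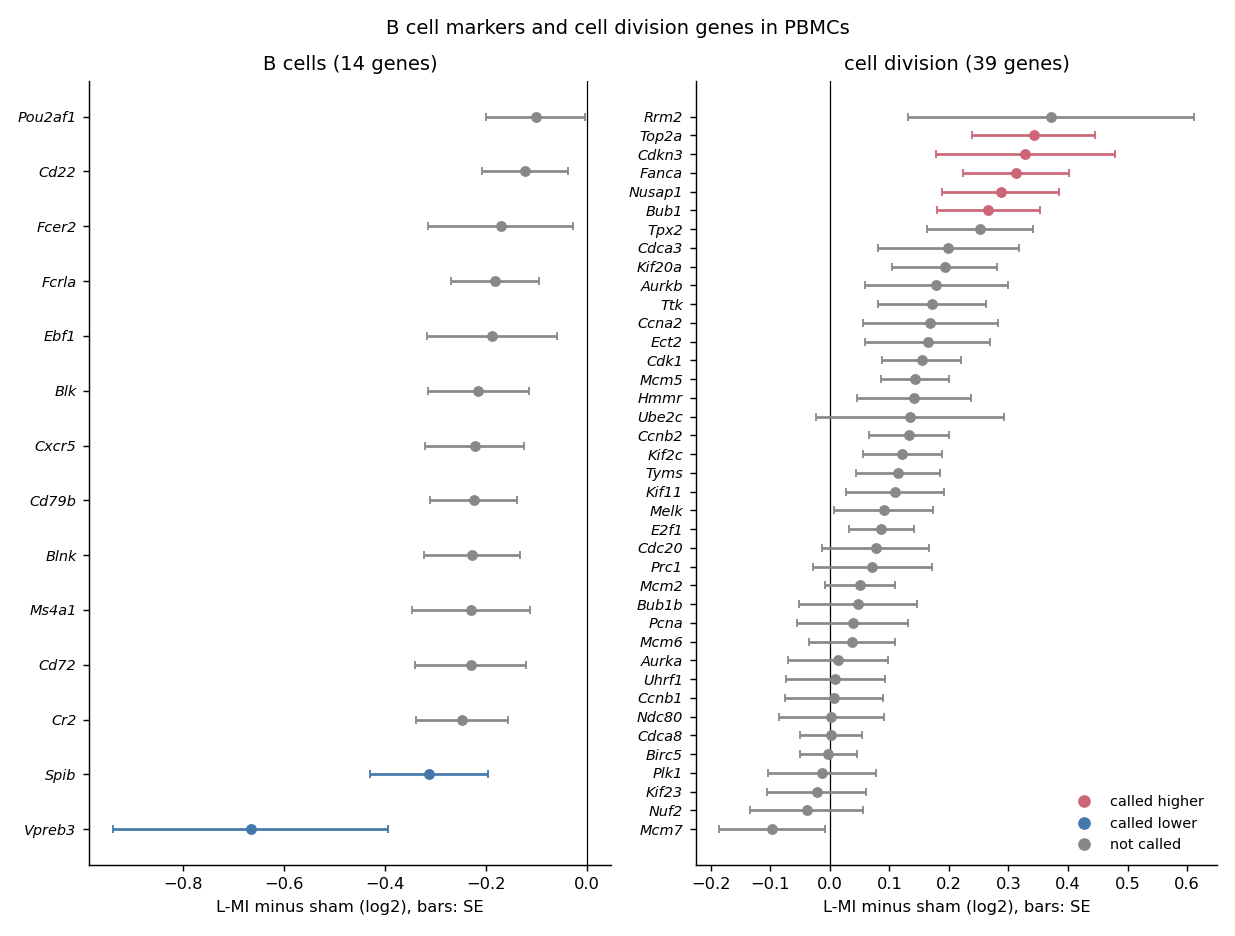
Log2 fold change between L-MI and sham, with standard errors, of each measured B cell marker on the left and each measured cell division gene on the right, ordered by value. All 14 B cell markers lie below 0, with Spib and Vpreb3 called lower. Most cell division genes lie above 0, and 5 of 39 are called higher.

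Tspan12 had the largest fall of any named gene. It encodes a tetraspanin, a membrane protein that organizes receptors and is known as a partner of the Wnt receptor Frizzled-4 in retinal vessels. The signals were 10.85, 11.16, 11.59, 10.55, 9.07 and 11.68 in sham replicates 1 to 6 and 10.04, 8.67, 9.14, 8.71 and 9.34 in L-MI replicates 1 to 5. Sham replicate 5 lay among the L-MI arrays, and L-MI replicate 1 was the highest of its group. The log2 fold change was -1.64 (SE 0.41, exact permutation p = 0.0152), a 3.11-fold difference, and it was kept at -1.98 to -1.46 whichever array was left out. Of 24 measured tetraspanins Tspan12 was the only one called, and the median of the list was 0.04.

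In LV, Tspan12 lay between 11.41 and 11.79 in sham and between 11.11 and 11.23 in L-MI, a log2 fold change of -0.48 (SE 0.32 in the model over both tissues, limma's adjusted p = 0.435). The LV groups did not overlap, and in a model over the LV arrays alone, added after seeing the data, the SE was 0.07 (limma's adjusted p = 0.0014). By RT-qPCR the study found the fall of Tspan12 significant in PBMCs and no significant change in LV. The difference between the tissues was -1.16 (SE 0.45, limma's adjusted p = 0.223). Without PBMC sham replicate 5 it was -1.51 (limma's adjusted p = 0.00654).

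Cp and Ptgs2 were called higher in PBMCs by small amounts. Cp encodes ceruloplasmin, the copper-carrying ferroxidase of plasma, and lay between 5.78 and 6.15 in sham (median 5.95) and at 6.17, 6.12, 6.21, 5.96 and 6.57 in L-MI. The log2 fold change was 0.27 (SE 0.10, exact permutation p = 0.0281), just above the fold of 1.2. In LV it was 1.19 (SE 0.10, limma's adjusted p = 8.57e-08), and the effect in PBMCs was smaller by the interaction term (difference -0.92, SE 0.14, limma's adjusted p = 5.44e-04). That term passed in 2.55% of all transcript clusters.

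Ptgs2, the inducible cyclooxygenase, lay between 5.68 and 5.96 in sham (median 5.77) and at 6.15, 5.98, 6.10, 5.84 and 6.75 in L-MI, a log2 fold change of 0.37 (SE 0.13, exact permutation p = 0.0108). In LV the log2 fold change was 1.11 (SE 0.18), and the difference between the tissues was -0.74 (SE 0.26, limma's adjusted p = 0.162). The study's RT-qPCR gave the rise of Cp as significant in both tissues. That of Ptgs2 was significant in LV and only near significance in PBMCs. L-MI replicate 5, the array with the highest mean of basophil and mast cell genes, had the highest signal of both Cp and Ptgs2. Without it the log2 fold changes were 0.17 and 0.22, below the fold threshold, and the calls ended. That of Cp also ended without sham replicate 1, 2 or 5, at log2 fold changes of 0.23 to 0.26. The part of those other cells in the 2 differences was not tested. Neither the other 23 inflammatory mediators measured nor the other 18 genes of iron and copper handling held a call.

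**Figure D5:**
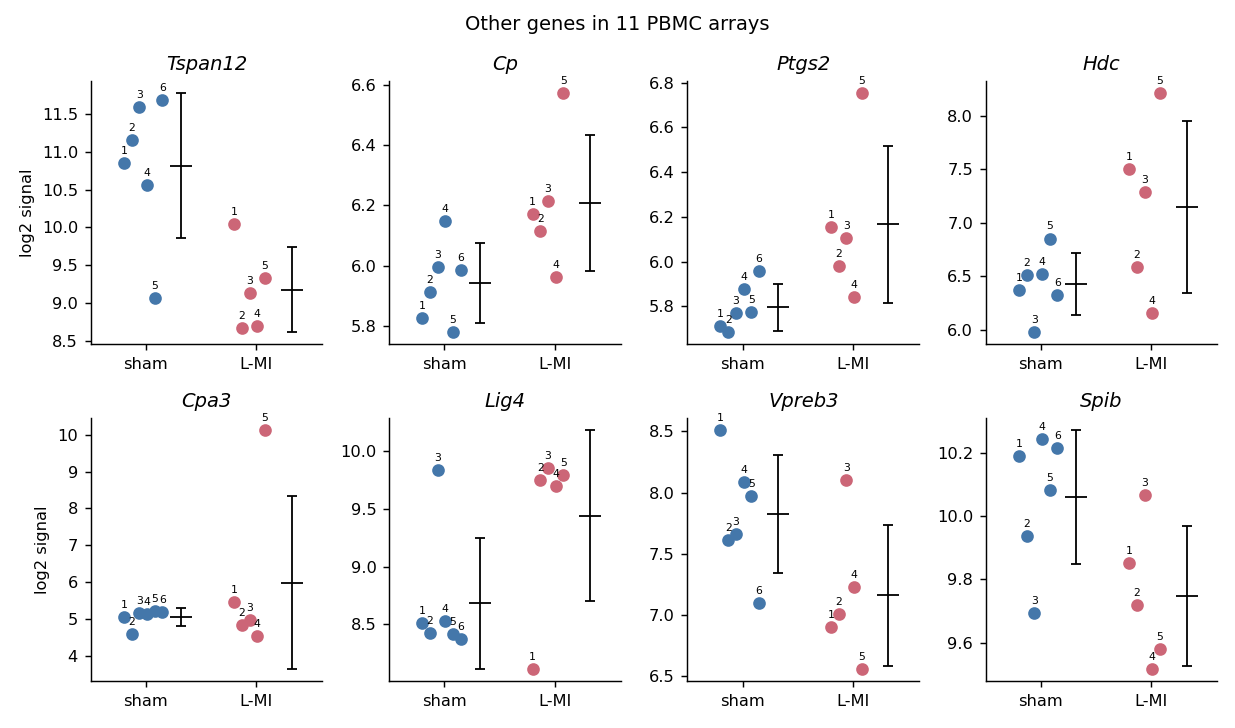
Log2 signal of 8 further genes in each PBMC array, numbered by replicate, with the mean and SD of each group. Tspan12 is low in all L-MI arrays and in sham replicate 5, Cp, Ptgs2, Hdc and Cpa3 are highest in L-MI replicate 5, and Lig4 falls into a high and a low level, with L-MI replicate 1 and sham replicate 3 against their groups. Each panel has its own scale.

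Single genes outside the lists made up the rest of the largest rises. Lig4, a DNA ligase of double-strand break repair, had a log2 fold change of 0.76 (SE 0.34, exact permutation p = 0.0801) and a high and a low level that 9 of 11 arrays took by group. It was at 9.70 to 9.85 in 4 L-MI arrays and at 8.11 in L-MI replicate 1, and at 8.37 to 8.53 in 5 sham arrays and at 9.84 in sham replicate 3. Slc2a4, the insulin-responsive glucose transporter GLUT4, had a log2 fold change of 0.56 (SE 0.24, exact permutation p = 0.0866), and Prps1, an enzyme of nucleotide synthesis, one of 0.59 (SE 0.26, exact permutation p = 0.0736). Terc, the RNA component of telomerase, rose by 0.49 (SE 0.12, exact permutation p = 0.00866), with sham arrays between 7.84 and 8.49 and L-MI arrays between 8.38 and 8.87. Asns, asparagine synthetase, had one of 0.44 (SE 0.18, exact permutation p = 0.0455).

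Chemokine receptors gave 1 call in each direction among 18. Beside Ccr6, Cxcr6, a receptor of effector T and NKT cells, lay between 9.78 and 10.21 in sham (median 10.05) and at 10.34, 10.48, 10.08, 10.54 and 10.54 in L-MI, a log2 fold change of 0.39 (SE 0.10, exact permutation p = 0.0152). Its call was kept whichever array was left out, whereas that of Ccr6 ended without sham replicate 1 or L-MI replicate 5. Lgals3bp, a secreted galectin-binding protein induced by interferon, was the only call among 28 interferon-stimulated genes (0.38, SE 0.13, exact permutation p = 0.0346), whose median was 0.04.

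Of 27 immediate early genes, which respond quickly to stimulation and handling of cells, Jun alone was called, lower by 0.38 on the log2 scale (log2 fold change -0.38, SE 0.14, exact permutation p = 0.0325). Jund, named from the study's list, had one of -0.28 (exact permutation p = 0.0173). Fos stood at -0.06 and Egr1 at 0.39 without passing the test.

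Non-coding transcripts named from the study's list were called in both directions. Bsr, a host of repeated small nucleolar RNAs, was higher, with the groups apart and a log2 fold change of 0.39 (SE 0.09, exact permutation p = 0.00433). Gas5, the host gene of small nucleolar RNAs, has 2 transcript clusters here. In one the groups lay apart, with a log2 fold change of -0.50 (SE 0.11, exact permutation p = 0.00216), and in the other it was -0.32 (SE 0.09, exact permutation p = 0.013). SNHG6, another such host gene, was at 6.70 or lower in L-MI replicates 1 and 5, at 7.47 to 7.82 in the other L-MI arrays and at 7.54 to 7.99 in sham, a log2 fold change of -0.53 (SE 0.20, exact permutation p = 0.0325). The mitochondrially encoded ATP6 and ND6 had log2 fold changes of -0.48 (SE 0.14) and -0.36 (SE 0.11). The 80 measured nuclear genes of oxidative phosphorylation and the 79 of ribosomal proteins held 0 calls by limma (1 and 0 on p alone), with medians of -0.04 and -0.06.

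Several gene groups with known roles in the infarcted heart or in stress gave no calls in blood. None of 25 matrix metalloproteinases and their inhibitors was called by limma (0 on p alone as well), and Mmp9, the gelatinase of leukocytes, stood at 0.18 (SE 0.12) and Timp1 at -0.01. Lists of 44 genes of MHC and antigen presentation, 18 of adrenergic and glucocorticoid response, 14 of the circadian clock and 13 of heat shock held 0 calls each by limma (0 on p alone). Their medians lay between -0.04 and 0.01. In the MHC list 30 members lay below 0, the lowest at -0.75 without passing on p. Without L-MI replicate 3 the MHC genes Psmb8, RT1-Db1 and RT1-Ha were called lower, and without L-MI replicate 2 Mmp9 (0.30) and the clock gene Bhlhe40 (0.48) were called higher. For comparison, 1098 olfactory receptor genes, which blood cells are not known for, held 3 calls (0.273%) and a median of 0.0002.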

How the data were processed

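PBMC RNA of 5 L-MI and 6 sham replicates was measured on Affymetrix Rat Gene 1.0 ST arrays. The authors deposited log2 signals of 29214 transcript clusters, made with RMA in the Partek Genomics Suite. Versions and log base are not given in the sources used here, and the base was taken as 2. LV medians (6.52 to 6.61) differ from those of PBMCs, so levels were not compared between tissues. Detection flags were not used here, so a low signal cannot be told from background. Total RNA had passed the authors' check of integrity. Precision is limited by how many arrays there are.

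Genes were named from the platform annotation where it gives 1 symbol (15310 transcript clusters, with 323 more carrying several symbols). Where a gene had several transcript clusters, the brightest stood for it in the lists. Names from the study's table were used only where that annotation has none. L-MI was compared with sham in limma 3.58.1 (R 4.3.3), with a model over the 11 PBMC arrays, and single genes also with a two-sided exact permutation test on the difference of group means. The interaction between tissues was fitted over the arrays of L-MI and sham in both, taken as independent. The fit was tested on simulated data. Alignments were global (biopython 1.88).

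Named genes were the 20 largest rises and 20 largest falls among calls, the genes the study names for PBMCs, every called member and the 3 smallest p of each of 30 gene lists, and defining markers. Not all of these are mentioned. The members and lists were chosen with earlier results of these data known, so lists are described by counts and medians with no test of their own. Of the lists, that of mitochondrially encoded genes matched no named gene and that of small nucleolar RNA host genes 1, with a log2 fold change of 0.06. Alternatives were an ordinary analysis of variance, limma-trend, array weights, dropping the dimmest 30% of signals, centring arrays on their median, a further quantile normalization, other thresholds, a replicate block, leaving out each array and, for the interaction, all 34 arrays in 1 model.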

Additional observations from a re-analysis of the deposited data

Results flagged for a closer look

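Single arrays stood apart from the rest of their group in 12 of the 168 groups of values examined, by a gap to the nearest array that passes Dixon's 95% value, and chance alone gives about 1 in 20. Lig4 was the clearest, with sham replicate 3 at 9.84 where the next sham array was at 8.53 and L-MI replicate 1 at 8.11 where the next L-MI array was at 9.70. L-MI replicate 5 stood apart in the mast cell and basophil genes Cpa3 (10.13, next 5.46) and Ms4a2 (6.93, next 5.48), and sham replicate 2 was low in Cpa3 at 4.59. L-MI replicate 2 was low in the mean of the NK and cytotoxic granule genes (8.97, next 9.64) and in the receptor gene Klrg1 (7.42, next 8.63), and high in Fanca (7.54). L-MI replicate 1 was high in Bub1 at 5.28, and sham replicate 4 in Prps1 at 9.23. Sham replicate 1 was low in Cd3e, at 11.97, and in the mean of the T cell markers, at 11.03.

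The effect of L-MI on Cp differed between the tissues. It was smaller in PBMCs than in LV by 0.92 on the log2 scale (difference -0.92, limma's adjusted p = 5.44e-04), and Cp lay between 8.30 and 8.78 in all 5 LV arrays of L-MI, above the 7.27 to 7.42 of LV sham.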

How the results depend on the processing

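The number of calls moved with the thresholds and the arrays, and none of the 78 called transcript clusters of the genes taken up by rule changed direction in any alternative fit. Against 270 calls (142 higher, 128 lower), there were 1100 (499 and 601) without a fold threshold, 96 (57 and 39) at a fold of 1.3, 19 (11 and 8) at 1.5, 107 (45 and 62) at an unadjusted p of 0.01, and 0 in either direction at an adjusted p of 0.05. The ordinary analysis of variance gave 184 calls, of which 88 were higher, and the filter on dim transcript clusters 186, of which 94 were higher. Leaving out each array gave 238 to 475 calls, 110 to 221 higher and 99 to 280 lower, with the fewest without L-MI replicate 5 and the most without L-MI replicate 3. Between 173 and 222 of these were among the 270. None of these fits over all transcript clusters had a gene past the adjusted p (0 in each).

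Whether replicate numbers pair the arrays could not be decided, because same-numbered pairs were not set against differently numbered ones. The last sham array has no L-MI array of the same number. The deviations of same-numbered L-MI and sham arrays from their group means correlated between -0.05 and 0.13 over 5 pairs. With the replicate number as a block there were 457 calls, 257 higher and 200 lower, of which 215 were among the 270. The block ended the calls of Cp, Spib, Cd83, Jun, Fam129c, Cdkn3 and Prps1 among the genes named.

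Of the 51 called transcript clusters named in the text, 21 kept their call whichever array was left out. Of these, 20 also kept it in every alternative fit at the same thresholds in which they were tested. These 20 were those of Klrc1, Klrc2, Klrc3, Klri2, Klra5, Tspan12, Cxcr6, Lgals3bp, Cd209d, Terc, Bsr, Marchf8, Cyp2j4, LOC689800, LOC680329, RGD1564284, ATP6, ND6 and both of Gas5. Klra5, Bsr and Cd209d were among the dimmest 30% and thus absent from the fit that dropped those signals. The other 30 lost it without at least 1 array, Lig4, Ly49i2, Cdkn3 and Prps1 without 7 or more. The difference between tissues passed limma's adjusted p of 0.05 in all alternatives for Cp (-1.01 to -0.85 when an array was left out). For Klrc1 (0.48 to 0.79), Klrc2 (0.62 to 0.92) and Klrc3 (0.64 to 0.95) it did not pass. That held in the main fit and in every alternative. That of Ptgs2 ran from -0.89 to -0.51 and passed without LV L-MI replicate 2 (-0.88, limma's adjusted p = 0.0471), and that of Tspan12 ran from -1.51 to -0.98 and passed without PBMC sham replicate 5. Among lists of few calls, leaving out an array gave 1 (without L-MI replicate 1, 2 or 5) to 3 (L-MI replicate 3 or sham replicate 3 or 6) dendritic cell genes lower, 1 to 3 (L-MI replicate 3) immediate early genes lower, and 0 (L-MI replicate 5) to 3 (L-MI replicate 2 or sham replicate 4) inflammatory mediators higher by limma. In LV alone the difference of Tspan12 was -0.48 as in both tissues, with a smaller adjusted p (limma, 0.0014 against 0.435). The model over both tissues takes 1 residual variance per gene from the PBMC and LV arrays together. The causes of the changes with single arrays were not tested.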

Other observations

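Among the named genes called lower, a pair of glycosyltransferases moved. B3gnt5, which starts the lacto series of glycolipids, had a log2 fold change of -0.30 (SE 0.08, exact permutation p = 0.0108), and St3gal6, a sialyltransferase that helps build selectin ligands, one of -0.29 (SE 0.09, exact permutation p = 0.0238). Among those called higher were Pear1, a receptor of platelets and endothelium (0.41, SE 0.16, exact permutation p = 0.0649), Cyp2j4, a cytochrome P450 (0.51, SE 0.18, exact permutation p = 0.0433), and Marchf8, a ubiquitin ligase acting on membrane receptors (0.43, SE 0.14, exact permutation p = 0.0195).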
